A study of Mus musculus with 4 samples.

Results

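Dlk1, Meg3, Rian and Mirg lie side by side in an imprinted stretch of mouse chromosome 12, and Peg3 heads an imprinted domain on mouse chromosome 7. They were looked up by symbol, because they lead the genes of KP tumour epithelium in these libraries and are low in KPF1F2. Of the 5 genes, 4 were found among the 28006 features of the matrices, and Rian was not analysed here. The genes were chosen by their levels in epithelial cells of the 2 genotypes, so those levels are given as a description without a test.

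Single-cell RNA counts were made from mouse lung adenocarcinomas of 2 genotypes, with 4 libraries in all. KPF1F2 tumours carried the floxed alleles Foxa1flox and Foxa2flox together with p53frt and the inducible recombinase allele Rosa-FSF-CreERT2. KP tumours carried the same p53 and CreERT2 alleles but were Foxa1flox/+ and Foxa2flox/+, so that they too can lose a copy of each Foxa gene. All mice were of a mixed 129/B6 strain. In all groups an adenovirus with Flp recombinase under the mouse surfactant protein C promoter, which acts in alveolar epithelium, started the tumours. All mice had tamoxifen at 120 mg/kg on 4 days running, in week 10 of tumour growth, with collection in week 12. Cells were loaded either after magnetic removal of cells with the leukocyte surface protein CD45 or the endothelial surface protein CD31 (post-depletion) or without it (pre-depletion). Each of the 4 groups (KPF1F2 post-depletion, KP post-depletion, KPF1F2 pre-depletion, KP pre-depletion) is 1 library, so no test between groups was possible, and every interval below is a 95% interval for counting error only. The labels give neither the number of mice per library nor whether a genotype's libraries share mice, nor the animals' ages.

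Imprinted genes are read from the copy of a single parent. In the mouse, Dlk1 is expressed from the father's chromosome and encodes a membrane protein with epidermal growth factor repeats that is related to the Notch ligands, while Meg3, Rian and Mirg are long noncoding RNAs expressed from the mother's chromosome that carry small nucleolar RNAs and microRNAs. Peg3, expressed from the father's copy, encodes a large zinc finger protein. All are known for high expression in the embryo and placenta and for low levels in most adult tissue, and in mouse lung Dlk1 has been linked to the repair of alveolar epithelium.

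In GRCm38 with the GENCODE M21 annotation, Dlk1 spans chr12:109452823-109463336, Meg3 chr12:109541001-109571726, Rian chr12:109603940-109661716 and Mirg chr12:109729764-109749460, all on the plus strand. Peg3 lies on the minus strand at chr7:6703892-6730431. The way the deposited counting treated overlapping genes is not given in the sources used here. Gm26906, annotated on the minus strand inside the Meg3 span, had 3 UMIs (unique molecular identifiers, each a counted RNA molecule) in epithelial-like cells of KPF1F2 post-depletion and 53 in those of KP post-depletion, against 2040 and 58559 for Meg3 in the same cells.

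The promoter windows of the members whose levels the results turn on are shown so that shared letters can be seen. They run from 250 bases before to 50 bases after the start site, from RefSeq (GRCm38.p6). Capitals mark TGTTTAC, the core that forkhead proteins such as Foxa1 and Foxa2 bind, in the Dlk1 window, and TGACGTCA, the cAMP response element, in the windows of Meg3 and Peg3.
Dlk1, chr12:109452573-109452872, plus strand: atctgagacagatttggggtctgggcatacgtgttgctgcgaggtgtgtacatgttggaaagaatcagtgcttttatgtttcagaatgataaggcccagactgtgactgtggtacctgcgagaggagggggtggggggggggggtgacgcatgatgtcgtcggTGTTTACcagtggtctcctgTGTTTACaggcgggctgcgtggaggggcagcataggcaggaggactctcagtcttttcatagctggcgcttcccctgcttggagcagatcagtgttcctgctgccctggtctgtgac
Meg3, chr12:109540746-109541045, plus strand: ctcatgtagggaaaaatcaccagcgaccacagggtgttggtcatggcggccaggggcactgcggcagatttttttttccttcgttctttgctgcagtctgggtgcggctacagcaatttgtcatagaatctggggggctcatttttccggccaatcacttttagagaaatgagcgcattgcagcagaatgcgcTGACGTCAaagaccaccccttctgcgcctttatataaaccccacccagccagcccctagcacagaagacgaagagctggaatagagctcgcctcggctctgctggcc
Peg3, chr7:6730370-6730669, minus strand: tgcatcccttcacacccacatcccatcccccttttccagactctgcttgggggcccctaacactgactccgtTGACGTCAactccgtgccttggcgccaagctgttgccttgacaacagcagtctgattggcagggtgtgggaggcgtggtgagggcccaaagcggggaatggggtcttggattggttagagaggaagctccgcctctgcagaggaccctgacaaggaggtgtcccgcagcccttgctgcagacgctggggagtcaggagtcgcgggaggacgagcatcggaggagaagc
The Dlk1 window held TGTTTAC at 2 places, starting 87 and 67 bases before the start site. On either strand, 3.65% of 32851 RefSeq promoter windows held that core. TGACGTCA, which was added to the search after the windows had been read, lay 57 bases before the Meg3 start and 178 bases before the Peg3 start, and was held by 1.79% of all windows. The second Meg3 window and those of Rian and Mirg held none of the letters searched. TATTTAC (3.04% of all windows), the YY1 core GATGGC (14.1%) and the CTCF consensus (0.0365%) were in none of the members' windows. A match is a match of letters only.

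Mirg and Meg3 also host microRNAs. RefSeq lists 26 mature microRNAs on the plus strand inside the Mirg span, with 25 different seeds (bases 2 to 8), and 3 inside the Meg3 span. The seed shared by a pair of Mirg microRNAs, and the microRNAs of the Meg3 hairpin, are printed with the seed in capitals. Both Mirg microRNAs fall in introns, and those of Meg3 in exons.
mmu-miR-453: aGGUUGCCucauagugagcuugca
mmu-miR-496a-5p: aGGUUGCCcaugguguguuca
mmu-miR-770-5p: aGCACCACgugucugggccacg
mmu-miR-770-3p: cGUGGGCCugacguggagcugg
These libraries count the ends of polyadenylated transcripts, so the values below are of the host RNAs and say nothing of the mature microRNAs.

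The 4 matrices held 4415 to 8536 barcodes and 47805086 to 63010016 UMIs. After filters, 2475 to 3616 cells per library were kept, and any 2 libraries shared 6 to 16 barcodes, at most 0.268% of the smaller. Epithelial-like cells, named by clusters with raised Epcam, cadherin, keratin and claudin genes, numbered 1942 in KPF1F2 post-depletion, 2730 in KP post-depletion, 206 in KPF1F2 pre-depletion and 682 in KP pre-depletion. Nkx2-1, the lung lineage factor, was at 147 to 189 CPM in the 4 groups, where CPM is a gene's UMIs over all UMIs of the summed cells on the usual scale, and Epcam at 655 to 837 CPM. The floxed genes could be checked in part only. The piece listed as Foxa1_2 was at 3.55 CPM in KPF1F2 and 16.6 CPM in KP post-depletion, and at 9.84 and 17.1 CPM pre-depletion, the piece Foxa1_1 was at 7.89 and 2.67 CPM post-depletion, and no piece of Foxa2 had more than 8 UMIs in any group. Which stretch of Foxa1 or Foxa2 each piece stands for is not given in the sources used here. Xist, the RNA of the inactive X chromosome, had 14 UMIs in KPF1F2 and 30937 in KP epithelial-like cells post-depletion, while the Y-linked Ddx3y had 1615 UMIs in KPF1F2 and 0 in KP. The sex of the animals and their genotype therefore cannot be told apart in any comparison below.

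All 4 members were lower in KPF1F2 than in KP epithelial-like cells in both depletion states, and Meg3 differed most in counts. Meg3 had 43.1 CPM (41.3 to 45.1) in KPF1F2 and 1348 CPM (1337 to 1359) in KP post-depletion, a log2 fold of -4.93 with 1 CPM added to each side, and 81.2 and 936 CPM pre-depletion, a log2 fold of -3.51. Dlk1 had 5.92 CPM (5.25 to 6.66) in KPF1F2 and 52.0 CPM (49.9 to 54.2) in KP post-depletion, and 10.2 and 85.8 CPM pre-depletion, with log2 folds of -2.94 and -2.95. Since this contrast chose the genes, nothing is read from the distance between the intervals. The intervals also leave out the spread between cells: 254 of the 280 KPF1F2 Dlk1 UMIs post-depletion lay in 1 cell. The pooled classes differ in make-up. Post-depletion, cluster 9 held 936 KPF1F2 and 3 KP cells, cluster 24 held 398 and 10, and cluster 28 held 20 and 662. Cluster 30 held 1 and 629 and cluster 34 held 0 and 275, while cluster 7 held 382 and 696. The part of that make-up in the folds was not tested.

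Mirg and Peg3 were near the limit of counting in KPF1F2. Mirg had 0.656 CPM (31 UMIs) in KPF1F2 and 17.9 CPM (776 UMIs) in KP post-depletion, and 1.05 CPM (6 UMIs) and 15.9 CPM (297 UMIs) pre-depletion, with log2 folds of -3.51 and -3.04. Peg3 had 0.127 CPM (6 UMIs) in KPF1F2 and 28.9 CPM (1254 UMIs) in KP post-depletion, with a log2 fold of -4.73. Pre-depletion it had 1 UMI in KPF1F2 and 374 in KP, a ratio of 0.0088 with an interval of 0.000222 to 0.0493. Since the 6 KPF1F2 UMIs of Peg3 post-depletion lay in 6 different cells, no epithelial-like KPF1F2 cell held more than 1 molecule of it.

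Dlk1 and Meg3 reached a mean of 20 CPM, the minimum for the comparison of all genes, and post-depletion and pre-depletion alike both lay past 2-fold on the lower side in KPF1F2. Of 5695 genes compared post-depletion, 3.72% were 2-fold lower and 4.76% 2-fold higher in KPF1F2, and of 5660 genes pre-depletion 2.72% were lower and 4.84% higher. Mirg and Peg3 did not reach that minimum in either state. Since the contrast chose the members, nothing is read from their number against these shares. The split of all genes depends on the scaling: pre-depletion, 64.0% of the genes past 2-fold were higher in KPF1F2 with library totals, and 48.8% with TMM factors, and the median log2 fold over all genes was -0.05 with TMM factors and 0.11 with library totals. With TMM factors and with DESeq2 size factors the 4 members were also lower in KPF1F2, with log2 folds of -2.97 to -4.98 post-depletion and -3.07 to -4.23 pre-depletion.

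**Figure D1:**
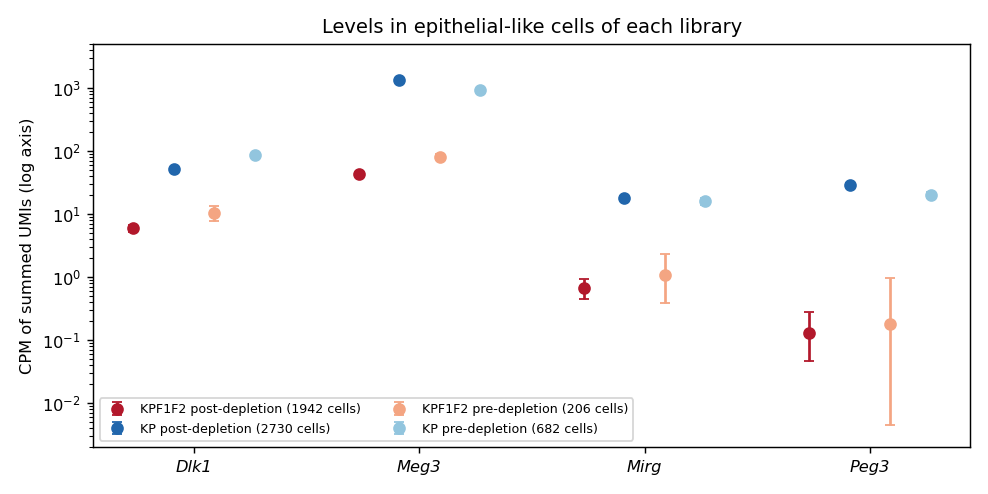
Levels of the 4 members in epithelial-like cells, as CPM of summed UMIs on a log axis, with exact Poisson 95% intervals for counting error. In each depletion state every KPF1F2 point lies below its KP point, from 5.92 against 52.0 CPM for Dlk1 to 0.127 against 28.9 CPM for Peg3 post-depletion.

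The depletion states differed less than the genotypes. In KP, the log2 fold of post-depletion over pre-depletion epithelial-like cells was -0.71 for Dlk1, 0.53 for Meg3, 0.16 for Mirg and 0.51 for Peg3. In KPF1F2 it was -0.69 for Dlk1 and -0.90 for Meg3, with too few UMIs of Mirg and Peg3 to read. Few cells set these 2 values. For Dlk1, 1 cell held 254 of 280 UMIs post-depletion and 1 cell 49 of 58 pre-depletion. For Meg3, 18 cells post-depletion and 7 pre-depletion, each with 20 or more UMIs, held 81.3% and 93.1% of its UMIs. Meg3 thus lay on opposite sides of 0 in the genotypes, with 1 library each and no test of the difference.

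The genotypes differed in how many cells had the RNA as well as in its level. To set depth aside, each cell was thinned to 5000 UMIs at random and shallower cells were left out (455 of 1942 in KPF1F2 and 567 of 2730 in KP post-depletion). Meg3 was then found in 3.09% of 1487 KPF1F2 cells and 67.3% of 2163 KP cells post-depletion, and in 5.49% of 182 and 52.4% of 525 cells pre-depletion (7.42% and 73.3%, and 8.74% and 53.8%, unthinned). Peg3 was found in 0.0672% of KPF1F2 and 10.2% of KP cells post-depletion (0.309% and 18.8% unthinned), and Mirg in 0.269% and 7.67% (0.927% and 16.9% unthinned). Dlk1 was found in 0.135% of KPF1F2 cells and 4.95% of KP cells (0.154% and 6.63% unthinned).

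Macrophages, which are not known to express these genes, give the background of free RNA. In pre-depletion libraries, Meg3 was found in 0.0845% of 1183 thinned KPF1F2 macrophages (median 19370 UMIs before thinning) and 6.21% of 1159 thinned KP macrophages (median 18567 UMIs), and in 0.394% and 22.0% of them unthinned. The KP epithelial-like share of 52.4% lies above that background. For Dlk1, Mirg and Peg3 the KP macrophage shares were 0.431%, 0.0863% and 0.0863%, against 5.90%, 6.48% and 6.29% of KP epithelial-like cells pre-depletion. The KPF1F2 epithelial-like share of Meg3, 5.49%, lay above that of macrophages from the same library.

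Dlk1 differed from the other members in how its molecules were spread over cells. In KP post-depletion, 32 of 2730 epithelial-like cells had 20 or more Dlk1 UMIs and together held 72.7% of all Dlk1 UMIs there, and in KP pre-depletion 18 of 682 cells held 94.6%. The highest cells had 204 and 260 UMIs. Meg3 had 853 cells of 20 or more UMIs post-depletion and 194 pre-depletion, while Peg3 had 1 and 2 such cells and Mirg none, with at most 11 UMIs of Mirg in a cell. A few cells therefore set the Dlk1 level of a library, whereas Meg3 was spread over most KP cells. The first 5% of KP post-depletion cells, ordered by each gene, held 98.0% of Dlk1, 59.3% of Peg3, 54.1% of Mirg and 34.0% of Meg3 UMIs.

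In KPF1F2 the Dlk1 level rested on even fewer cells. Post-depletion, 3 of 1942 epithelial-like cells had Dlk1, with 254, 25 and 1 UMIs. The cell with 254 Dlk1 UMIs also had 528 Meg3 and 9 Mirg UMIs among 135334 in all, with 20155 UMIs of Sftpc, the surfactant gene of alveolar type 2 cells, and no UMI of CRE-ERT2. Its total was far above the class median of 17586 UMIs, and it was not among the cells removed as putative doublets. The cell with 25 Dlk1 UMIs had 14 Meg3 and 5324 Sftpc UMIs and no CRE-ERT2 UMI. Pre-depletion, 2 of 206 cells had Dlk1, with 49 UMIs in a cell with 44 Meg3, 4573 Sftpc and no CRE-ERT2 UMIs and 9 UMIs in a cell with 1 CRE-ERT2 UMI and no Meg3. The 3 KPF1F2 cells of 20 or more Dlk1 UMIs in both libraries thus all held Meg3, as did all 32 and all 18 such KP cells post- and pre-depletion. None of the 5 KPF1F2 cells with Dlk1 had a Xist UMI. Without the highest Dlk1 cell of each KPF1F2 library, a choice made after the values were seen, the Dlk1 log2 folds were -5.09 post-depletion and -5.06 pre-depletion.

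CRE-ERT2 is the transcript of the recombinase that Flp switches on, so a UMI of it marks a cell of the Flp-exposed lineage, though a cell without one may have been missed. Among the 585 KPF1F2 epithelial-like cells with such a UMI post-depletion, Dlk1 had 0 UMIs in 24777532, against 37.7 CPM in the 850 KP cells. The limit of 3 counts in the KPF1F2 library is 0.121 CPM, or 311-fold lower if UMIs fell independently over cells. They did not, since the 10 KP cells with most Dlk1 held 65.7% of its UMIs, so 311-fold is no lower bound. By cells, Dlk1 was found in 0 of 585 in KPF1F2 (which allows up to 0.629%) and 68 of 850 in KP. Meg3 was at 18.2 CPM in those KPF1F2 cells and 1258 CPM in the KP cells, and Peg3 had 3 UMIs (0.121 CPM) and 612 UMIs (28.0 CPM). In KPF1F2 cells without a CRE-ERT2 UMI, Meg3 was at 70.6 CPM and Dlk1 at 12.4 CPM. KP cells without one had 1440 and 66.4 CPM. The 12.4 CPM of Dlk1 came from 3 cells, with 254 of 280 UMIs in 1 of them, and the KPF1F2 cells with and without the mark differ in depth, with medians of 33637 and 11618 UMIs. Pre-depletion, Dlk1 had 9 UMIs (4.32 CPM), all in 1 cell, among the 51 KPF1F2 cells with the mark and was at 102.8 CPM in the 256 KP cells. Meg3 pre-depletion was at 77.3 CPM (65.9 to 90.2) in KPF1F2 cells with the mark and 83.4 CPM (74.3 to 93.4) in those without it, with overlapping intervals, and was found in 15.7% and 6.45% of them. Post-depletion, Meg3 was found in 7.35% of KPF1F2 cells with the mark and 7.44% of those without it. The 10 cells with most Meg3 held 81.4% of its UMIs among the former and 80.8% among the latter. The intervals of the Meg3 level with and without the mark overlapped only pre-depletion, but they leave out this spread between cells.

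**Figure D2:**
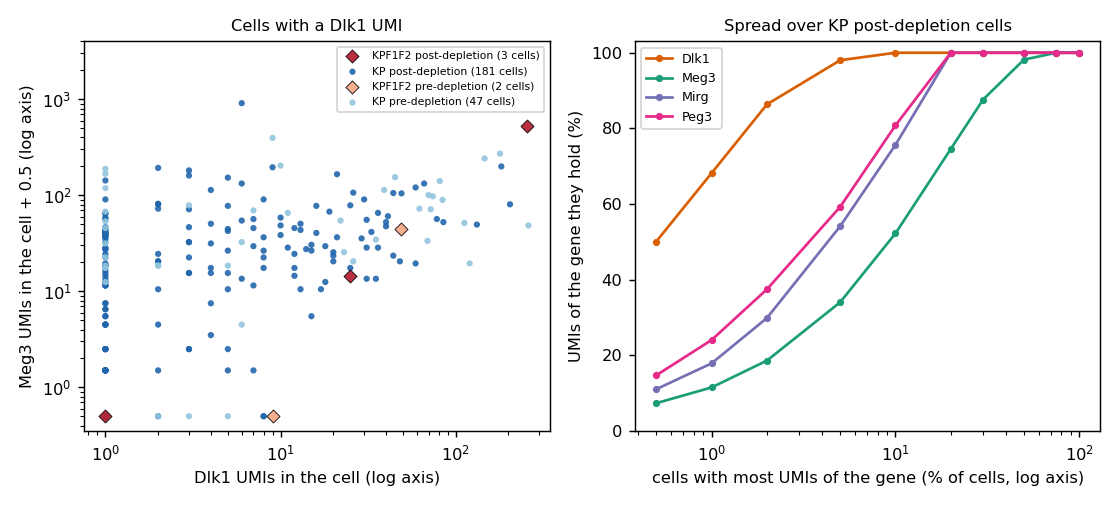
Left, Dlk1 and Meg3 UMIs of each epithelial-like cell with a Dlk1 UMI, both on log axes, with 0.5 added to Meg3; diamonds are KPF1F2 cells (3 post-depletion and 2 pre-depletion) and circles KP cells (181 and 47). Right, share of each gene's UMIs held by the KP post-depletion cells with most of it; Dlk1 reaches 98.0% in the first 5% of cells, and Meg3 34.0%.

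Within KP post-depletion epithelium the members peaked in different clusters. Meg3 was at 2559 CPM in cluster 30 and 2587 CPM in cluster 34, both led by surfactant or Gkn2 and keratin genes, at 738 CPM in cluster 28 (led by Krt18, Krt7 and Krt8), at 523 CPM in cluster 7 (led by Sftpa1 and Retnla) and at 206 CPM in cluster 29. Its intervals in clusters 30 and 34 overlapped, and those of the other 3 did not. Mirg too was highest in clusters 30 and 34, at 35.5 and 34.8 CPM. Below them it kept the order of Meg3, with 8.63, 5.85 and 1.76 CPM in clusters 28, 7 and 29. Peg3 was at 58.4 and 56.8 CPM in clusters 30 and 34 and at 14.5, 3.12 and 10.3 CPM in clusters 28, 7 and 29. Clusters 28, 29, 30 and 34 were formed partly by such genes, so these levels describe the clusters and test nothing.

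Dlk1 did not keep that order. It was at 125 CPM in cluster 30, 58.3 CPM in cluster 7, 31.3 CPM in cluster 34, 17.6 CPM in cluster 29 and 1.43 CPM in cluster 28, where 18 UMIs came from 12 of 662 cells. Cluster 28 therefore held Meg3 in 75.7% of its cells and Dlk1 in 1.81%, before thinning. In the shallow cluster 31 Dlk1 was at 193 CPM, of which a single cell gave 78 of 104 UMIs. Of the 32 KP post-depletion cells of 20 or more Dlk1 UMIs, 16 were in cluster 30 and 8 in cluster 7. In KPF1F2 post-depletion, 2 of the 382 cells of cluster 7 held 279 Dlk1 UMIs, among 9102347 UMIs of the cluster. Of these, 254 lay in 1 cell, so that level is not set against that of KP. Pre-depletion, the KPF1F2 cells with Dlk1 were in clusters 4 and 24, and none was in cluster 7.

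In KPF1F2 post-depletion, Meg3 was at 148 CPM in cluster 7, which had almost no CRE-ERT2 (0.659 CPM), at 23.8 CPM in cluster 9 and at 9.55 CPM in cluster 24, the main KPF1F2 clusters with CRE-ERT2 (24.1 and 53.4 CPM). Cluster 7 thus held the highest of these 3 levels, with 10 of the 18 KPF1F2 cells of 20 or more Meg3 UMIs, and those 10 cells alone held 62.3% of the class's Meg3 UMIs. Meg3 in KPF1F2 was nearer to its KP level in cluster 7 than over the whole class. Cluster 10, of 112 shallow KPF1F2 cells with a median of 1365 UMIs, had Meg3 at 508 CPM (410 to 621) in 45.5% of its cells and never more than 5 UMIs in a cell. Its Malat1, a nuclear long noncoding RNA, was at 106670 CPM, against 26570 CPM in cluster 7 of the same library, and the part of that difference in the Meg3 level was not tested.

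**Figure D3:**
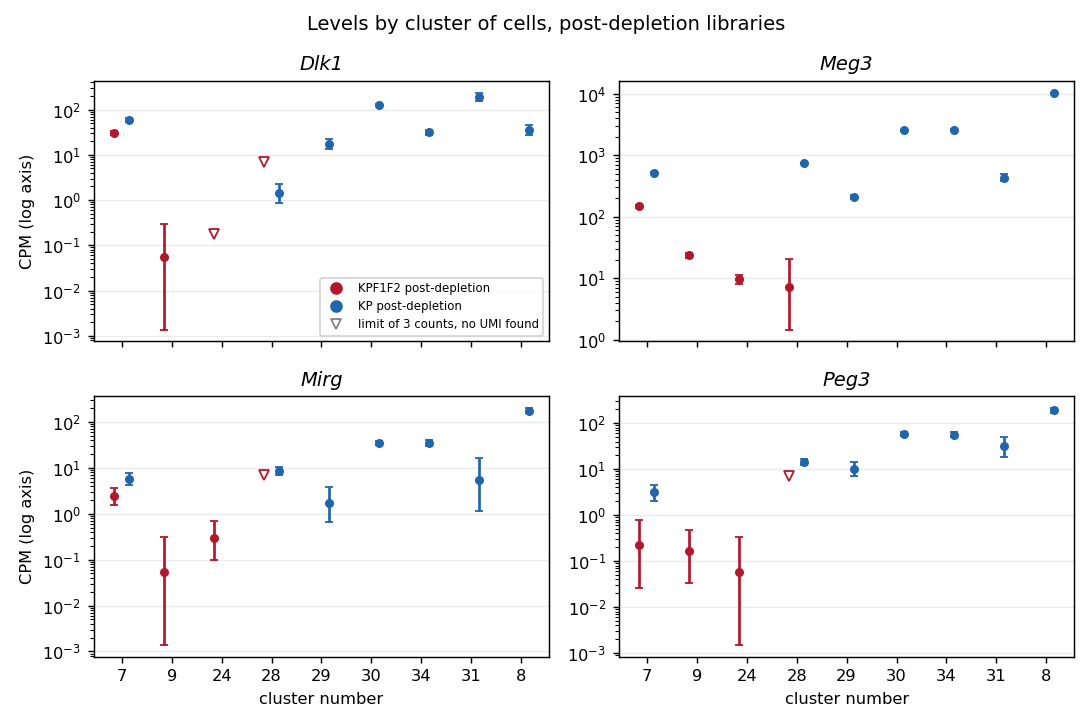
Levels of each member by cluster in the post-depletion libraries (CPM, log axes, exact Poisson 95% intervals), KPF1F2 left of KP within a cluster, for 9 clusters and libraries with at least 20 cells; open triangles mark the limit of 3 counts where no UMI was found. Meg3, Mirg and Peg3 are highest in the unnamed cluster 8 of KP, where Dlk1 is at 35.9 CPM.

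The naming rule left cluster 8 unnamed: its cells were shallow (median 2713 UMIs) with a median mitochondrial share of 11.2%, and its leading gene was Meg3. Nkx2-1, Sftpb and Nfib were also among its 10 leading genes. CRE-ERT2 was at 59.1 CPM, the highest of the clusters, so the cluster held cells of the Flp-exposed lineage. There were 10 KPF1F2 post-depletion, 532 KP post-depletion and 112 KP pre-depletion cells in cluster 8. In KP the cluster had Meg3 at 10207 CPM post-depletion and 9084 CPM pre-depletion, Mirg at 178 and 200 CPM, and Peg3 at 190 and 158 CPM. Dlk1 was at 35.9 and 64.5 CPM, below its epithelial-like levels of 52.0 and 85.8 CPM. Malat1 made up 148329 CPM of the cluster in KP post-depletion, against 23101 CPM in epithelial-like cells of that library. The 3 members that were high there moved with Malat1, Dlk1 did not, and the part of nuclear RNA in this was not tested.

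The ratio of Meg3 to Mirg changed little beside levels that changed more than 10-fold. In KP post-depletion there were 72.2 Meg3 UMIs per Mirg UMI in cluster 30 (65.2 to 80.2), 74.3 in cluster 34 (64.8 to 85.7), 85.5 in cluster 28 (70.8 to 104), 89.4 in cluster 7 (66.7 to 123) and 57.3 in cluster 8 (51.2 to 64.3). KPF1F2 cluster 7 had 61.1 (40.2 to 97.9), and KPF1F2 fibroblast cluster 16 had 90.7 (58.5 to 149). The interval of cluster 8 lay below those of clusters 30, 34, 28 and 7 of the same library, and the others overlapped. Meg3 to Peg3 was less even, with 168 Meg3 UMIs per Peg3 UMI in cluster 7 and 43.8 in cluster 30 of KP post-depletion.

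Within KP epithelial-like cells thinned to 5000 UMIs, cells with Meg3 had the other members more often. Post-depletion, Mirg was found in 11.3% of 1456 cells with Meg3 (9.69 to 13) and 0.283% of 707 cells without it (0.0343 to 1.02), Peg3 in 13.9% and 2.69%, and Dlk1 in 6.94% and 0.849%. Pre-depletion the shares were 12.4% of 275 cells with and 0 of 250 cells without Meg3 for Mirg (a count of 0 allows up to 1.2%), 10.9% and 1.20% for Peg3, and 9.82% and 1.60% for Dlk1. Conversely Meg3 was found in 164 of 166 cells with Mirg, 202 of 221 with Peg3 and 101 of 107 with Dlk1 post-depletion. Within clusters, the post-depletion difference between cells with and without Meg3 was 5.31 percentage points for Mirg and 2.45 for Peg3, against 11 and 11.2 over all cells, while that of Dlk1 was 6.53 within clusters and 6.09 over all cells.

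Dlk1 and Peg3, on different chromosomes, were seldom found together. Post-depletion, Peg3 was found in 3 of 107 cells with Dlk1 (2.80%, 0.582 to 7.98) and 10.6% of 2056 cells without it (9.31 to 12.0), and pre-depletion in 0 of 31 (which allows up to 9.68%) and 6.68% of 494. Within clusters the post-depletion difference was -10.3 percentage points, against -7.8 over all cells. Mirg was found in 16.8% of cells with Dlk1 and 7.20% of those without post-depletion, and in 3 of 31 and 6.28% pre-depletion. That post-depletion difference of 9.62 percentage points was 1.97 when cells were thinned to 2000 UMIs and 0.435 in CRE-ERT2 cells. The intervals of the 2 Peg3 shares did not overlap post-depletion and did pre-depletion. As a description over the 2730 KP post-depletion cells (682 pre-depletion), which share libraries and depth, Pearson's r of log-normalised values was -0.06 (-0.07) for Dlk1 with Peg3, 0.16 (0.18) for Dlk1 with Meg3, 0.42 (0.52) for Meg3 with Mirg and 0.25 (0.25) for Meg3 with Peg3. No thinned epithelial-like cell of the 4 libraries held all 4 members, and other cells were not counted.

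**Figure D4:**
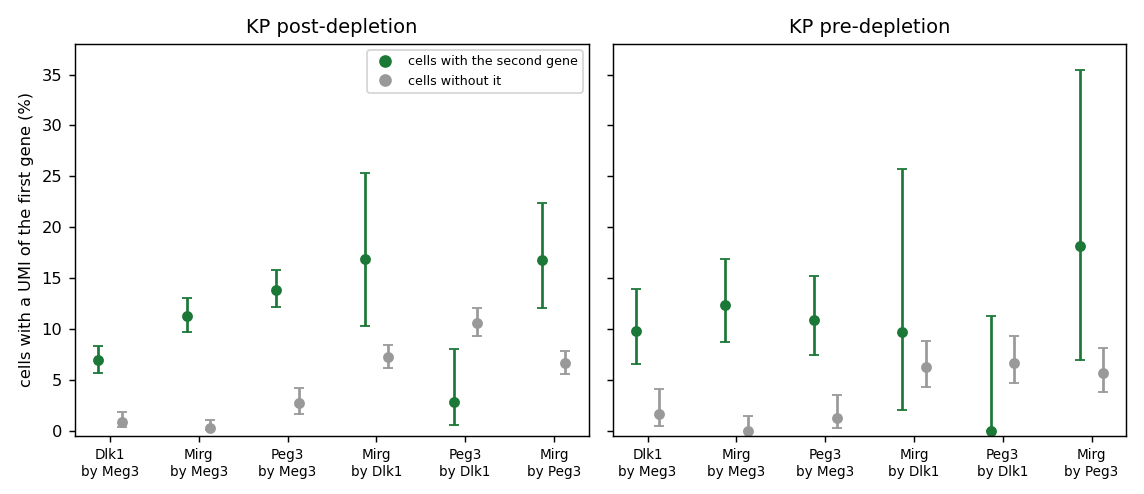
Share of KP epithelial-like cells, thinned to 5000 UMIs, with a UMI of the first gene, in cells with the second gene (green) and without it (grey), with Clopper-Pearson 95% intervals, post-depletion left. Each of Dlk1, Mirg and Peg3 is found more often with Meg3, and Peg3 less often with Dlk1 (2.80% against 10.6% post-depletion).

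The cells with more Meg3 molecules also had the other members more often. In KP post-depletion, Mirg was found in 0.838% of cells with 1 to 2 Meg3 UMIs of 5000, 7.71% of those with 3 to 9 and 20.3% of those with 10 or more. Peg3 was found in 5.59%, 11.8% and 20.5% of them, and Dlk1 in 2.79%, 7.51% and 8.93%. The mean mitochondrial share of the cells was 4.20% with no Meg3 UMI, then 4.94%, 5.29% and 6.66% in the same order, so the level of Meg3 and the mitochondrial share moved together.

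Post-depletion, the level was higher in each bin of higher mitochondrial share for Meg3, Mirg and Peg3, and not for Dlk1. KP post-depletion cells were split into 4 bins of equal size by rising mitochondrial share. From the lowest bin to the highest (medians 1.53%, 3.24%, 5.72% and 11.6%), Meg3 was at 666, 1221, 1696 and 2493 CPM and Peg3 at 19.3, 26.9, 34.1 and 44.9 CPM. Dlk1 was at 28.2, 66.4, 64.8 and 39.5 CPM, highest in the middle bins. The highest bin had 3.74 times the Meg3 level of the lowest (3.64 to 3.85), 2.99 times that of Mirg and 2.33 times that of Peg3, and pre-depletion the ratios were 2.78, 3.13 and 1.40. Other long noncoding RNAs were higher there too, with ratios post-depletion of 2.21 for Malat1, 2.13 for Neat1, 3.54 for Xist and 4.31 for the imprinted Kcnq1ot1. Pre-depletion Peg3 did not keep that order, at 21.2, 14.5, 21.4 and 29.7 CPM. With bins taken within clusters, the post-depletion ratios were 2.03 for Meg3, 1.83 for Mirg, 1.32 for Peg3 and 0.609 for Dlk1, and the pre-depletion ratios 3.16, 3.65, 0.897 and 0.478. The direction for Dlk1 thus turned in both states, and that for Peg3 pre-depletion.

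Total depth showed a different pattern in each state. Over 4 bins by rising UMI total post-depletion (medians 2928, 8800, 15603 and 30688 UMIs), Meg3 was at 1703, 1474, 1444 and 1244 CPM, Peg3 at 42.5, 27.6, 27.5 and 28.6 CPM and Dlk1 at 41.1, 50.8, 50.6 and 53.8 CPM. Pre-depletion (medians 1921 to 56414 UMIs), Meg3 was at 429, 837, 629 and 1092 CPM and Dlk1 at 18.7, 29.1, 73.0 and 104 CPM, and the ratios of the deepest to the shallowest bin were 2.55 for Meg3 and 5.55 for Dlk1. These depend on the setting: the Dlk1 ratio was 1.03 with a mitochondrial limit of 10%, and that of Meg3 was 0.695 within clusters and 1.08 in CRE-ERT2 cells. Malat1 was lower in the deepest than in the shallowest bin in both states, with ratios of 0.253 post-depletion and 0.389 pre-depletion. The post-depletion Meg3 ratio between the deepest and shallowest bins was 1.08 with a mitochondrial limit of 10% and 0.73 with the limit of 20%, so its direction depends on that limit.

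**Figure D5:**
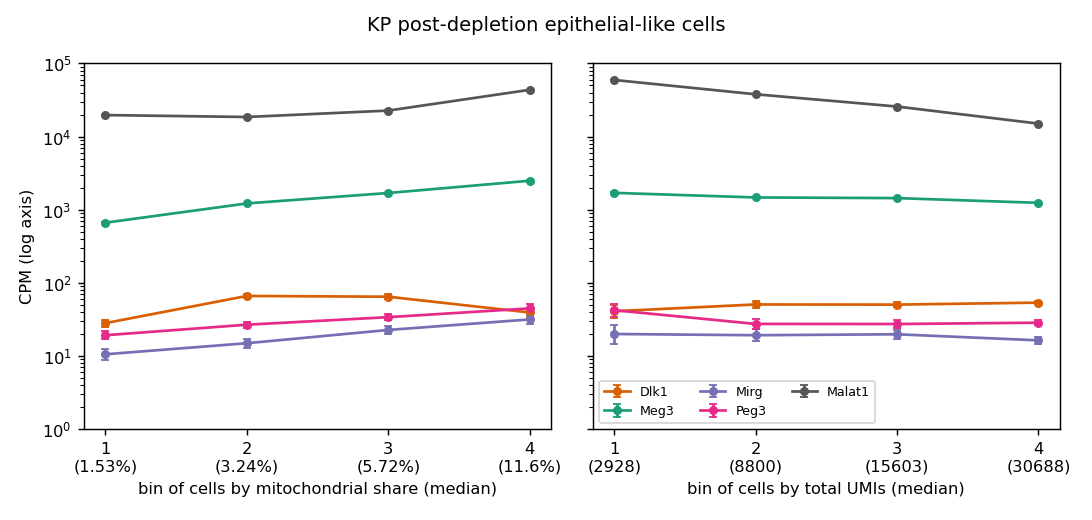
Levels in KP post-depletion epithelial-like cells in 4 bins by mitochondrial share (left) and by total UMIs (right), as CPM on a log axis with exact Poisson 95% intervals and the median of the bin in brackets. Meg3 is at 666 CPM in the lowest and 2493 CPM in the highest mitochondrial bin, while Dlk1 is highest in the 2 middle bins and Malat1 falls with depth.

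Barcodes that the filters removed carried the members too. Over all barcodes of KP post-depletion, Meg3 was at 650 CPM at a mitochondrial share under 2%, at 4156 CPM between 10% and 20%, at 5438 CPM between 20% and 40%, and at 1380 CPM above 40%. Dlk1 stayed between 27.6 and 52.5 CPM over these and the bins between. In KPF1F2 post-depletion the corresponding Meg3 levels were 60.2, 83.4, 137 and 20.2 CPM. In each of these bins KPF1F2 barcodes of all cell types had less Meg3 than those of KP, without any naming of cells. Summed over all barcodes post-depletion, Meg3 had 4776 UMIs in KPF1F2 and 108888 in KP, Dlk1 280 and 2740, Mirg 63 and 1692, and Peg3 242 and 2154.

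Outside the epithelium, fibroblasts expressed Meg3 and Peg3 in both genotypes. This comparison did not enter the choice of the genes. In post-depletion fibroblasts (419 KPF1F2 and 95 KP cells), Meg3 was at 296 CPM in KPF1F2 and 554 CPM in KP, a ratio of 0.534 (0.487 to 0.586), and Peg3 was at 16.9 and 33.9 CPM, a ratio of 0.499 (0.341 to 0.746). Mirg, with 22 and 4 UMIs, had a ratio of 0.932 (0.316 to 3.72), and Dlk1 had 0 and 1 UMI. The KPF1F2 to KP ratios of Meg3 and Peg3 in epithelial-like cells were 0.032 and 0.00439 post-depletion. Since those ratios chose the genes, nothing is read from setting them beside the fibroblast values. In KPF1F2 post-depletion, fibroblasts held 45.0% of all Peg3 UMIs and 39.9% of Meg3 UMIs, against 2.48% and 42.7% in epithelial-like cells. The fibroblasts of the genotypes differ in cluster make-up. Post-depletion, cluster 16 held 241 KPF1F2 and 7 KP cells, and cluster 15 held 178 and 88. Of the 1903 Meg3 UMIs of KPF1F2 fibroblasts, 1813 lay in cluster 16, where KP had few cells. The pooled ratios are therefore not ratios within a cluster. The part of make-up and of sex in them was not tested.

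Mesothelial and endothelial cells were read as well. Mesothelial cells of KPF1F2 post-depletion (83 cells) had Meg3 at 186 CPM and Peg3 at 29.2 CPM. In endothelial cells, present before depletion, Peg3 was at 2.12 CPM in KPF1F2 (1 UMI in 83 cells) and 56.2 CPM in KP (56 UMIs in 129 cells, from 11 of them). The KPF1F2 to KP ratio was 0.0378 (0.000939 to 0.219), but that interval leaves out the spread between cells. In KP, 1 endothelial cell held 29 of the 56 UMIs. Among thinned endothelial cells, Peg3 was found in 1 of 37 in KPF1F2 (2.70%, 0.0684 to 14.2). In KP it was found in 6 of 80 (7.5%, 2.80 to 15.6). The intervals of these shares overlap, so no difference in endothelial Peg3 is read from them. Meg3 was at 2.12 and 30.1 CPM there. In KP pre-depletion it was at 26.1 CPM in T cells and 14.7 CPM in alveolar macrophages. Endothelial Meg3 in KP therefore cannot be told from free RNA. Dlk1 had no UMI in fibroblasts of KPF1F2, which allows 0.466 CPM, or in its mesothelial cells (2.04 CPM) post-depletion, so that KPF1F2 Dlk1 was found only in epithelial-like cells there.

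Other transcripts of the chromosome 12 domain were low in epithelial-like cells and, like the members, lower in KPF1F2 there post-depletion. B830012L14Rik, a noncoding gene between Rian and Mirg, had 20 UMIs (0.423 CPM) in KPF1F2 and 512 UMIs (11.8 CPM) in KP epithelial-like cells post-depletion, a ratio of 0.0359 (0.0217 to 0.056), close to that of Mirg at 0.0367 (0.0248 to 0.0525). Gm26945, which lies inside the annotated span of Rian, had 8 and 147 UMIs, a ratio of 0.05 (0.0212 to 0.101). Dio3, the deiodinase gene at the far end of the imprinted domain, had 1 and 50 UMIs, and the retrotransposon-derived Rtl1 had 0 and 21. Post-depletion fibroblasts had more Dio3, at 4.19 CPM in KPF1F2 and 29.3 CPM in KP, against 0.0212 and 1.15 CPM in epithelial-like cells. The fibroblast ratio of B830012L14Rik was 2.54 (0.645 to 21.9), from 30 and 2 UMIs. B830012L14Rik, Gm26945 and Gm26906 were picked after the feature list had been seen. In KP post-depletion B830012L14Rik had the highest correlation with Mirg of 9924 genes (r = 0.32, and 0.37 pre-depletion).

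Other imprinted genes were read beside the members. Of 51 measured, 12 reached 20 CPM post-depletion, of which 1 was 2-fold higher and 2 were 2-fold lower in KPF1F2 (4.76% and 3.72% over all genes), with a median log2 fold of 0.08, as over all genes. Pre-depletion, 13 reached it, of which 2 were higher and 2 lower (4.84% and 2.72% over all genes), with a median of 0.25 against 0.11 over all genes. The list also holds Rtl1, Dio3 and Begain of the chromosome 12 domain and Usp29 and Zim1 of the Peg3 domain, none of which reached 20 CPM. Cd81, a tetraspanin, was higher (1139 CPM in KPF1F2 and 409 CPM in KP, log2 fold 1.48). Dcn, the proteoglycan decorin, was lower (6.24 and 80.1 CPM, -3.49), as was Kcnq1ot1, a noncoding RNA that silences its imprinted neighbours (46.9 and 133 CPM, -1.49). The other members at 50 CPM or more in KP were Gnas, which encodes a stimulatory G protein (0.13), the ubiquitin ligase Ube3a (0.02) and the peptidase gene H13 (-0.18). Igf2r, the receptor that clears Igf2, was at 82.2 CPM in KPF1F2 and 49.1 CPM in KP (0.73). Dcn also marks fibroblasts: the 7 fibroblast markers summed to 12.5 CPM in KPF1F2 and 89.2 CPM in KP epithelial-like cells post-depletion (3.87 and 58.4 CPM pre-depletion), with 0 and 1 of them at 0 (2 and 1 pre-depletion). In KP post-depletion, 3477 of their 3874 UMIs were of Dcn itself, and the other 6 markers summed to 6.26 CPM in KPF1F2 and 9.14 CPM in KP post-depletion and to 2.11 and 6.89 CPM pre-depletion. Their part in the members' levels was not tested.

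Genes in and beside the chromosome 12 domain were read next, Rtl1, Dio3 and Begain among them. Of 13 measured, 4 reached 20 CPM in each state, with 0 higher and 1 2-fold lower in each (3.72% of all genes were lower post-depletion and 2.72% pre-depletion). The median log2 fold was -0.27 post-depletion and -0.53 pre-depletion. Lower in both was Wars, a tryptophan tRNA synthetase, at 44.4 CPM in KPF1F2 and 115 CPM in KP (-1.35). The transcription factor Yy1 was at 173 and 271 CPM (-0.65; 111 and 223 CPM pre-depletion), the phosphatase subunit Ppp2r5c at 40.5 and 37.7 CPM (0.10) and the dynein heavy chain Dync1h1 at 134 and 122 CPM (0.13).

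Notch genes were read because Dlk1 resembles a Notch ligand. Of 22 measured, 4 reached 20 CPM post-depletion, none was 2-fold higher and 1 was 2-fold lower (4.76% and 3.72% over all genes), with a median log2 fold of 0.09. Pre-depletion, 5 reached it, of which 1 was higher and none lower (4.84% and 2.72% over all genes), with a median of 0.55. The lower gene post-depletion was the ligand Jag1, at 21.7 CPM in KPF1F2 and 58.8 CPM in KP (-1.40, and -0.63 pre-depletion). The receptor Notch1 was at 35.6 and 23.1 CPM (0.60), the target Hes1 at 108 and 83.7 CPM (0.36, and 1.01 pre-depletion, when it was the higher gene) and the DNA-binding partner Rbpj at 32.7 and 37.1 CPM (-0.18). Dlk2, the paralog of Dlk1, had 4 UMIs in each genotype post-depletion and was picked after its values were seen.

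Of 4 RNAs known to stay in the nucleus, none was 2-fold higher and 2 were 2-fold lower in each state (3.72% of all genes were lower post-depletion and 2.72% pre-depletion), with median log2 folds of -0.73 post-depletion and -1.01 pre-depletion. Pre-depletion all 4 lay below 0. Malat1 was at 44136 CPM in KPF1F2 and 23101 CPM in KP (0.93, and -0.67 pre-depletion), while Neat1 had a log2 fold of 0.03 (-0.75 pre-depletion). The lower ones were Xist, at -9.10 (-9.13 pre-depletion), whose level follows the sex of the animals, and Kcnq1ot1 (-1.27 pre-depletion).

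Genes of fetal tissue were mostly lower. Of 15 measured, 6 reached 20 CPM post-depletion, of which none was 2-fold higher and 5 were 2-fold lower in KPF1F2 (3.72% of all genes were lower), with a median of -2.09 against 0.08 over all genes. Pre-depletion, 5 reached it, of which 1 was higher and 4 were lower (4.84% and 2.72% over all genes), with a median of -2.89. The gene on the other side was Sox9, a factor of the embryonic lung tip, at 74.1 CPM in KPF1F2 and 48.3 CPM in KP post-depletion (0.61) and 62.7 and 29.1 CPM pre-depletion (1.08). The X-linked genes Bex2 (4.48 and 67.1 CPM, -3.63) and Bex4 (15.3 and 132 CPM, -3.02), alpha-fetoprotein Afp (10.0 and 53.1 CPM, -2.30) and the chromatin protein Hmga2 (19.7 and 75.2 CPM, -1.88) were the largest. This list was chosen with earlier results of these data known, so its direction is no independent evidence. Igf2, the fetal growth factor, and its imprinted neighbour H19, both picked after their values were seen, were barely counted, with 5 and 4 UMIs in KPF1F2 and 19 and 4 in KP post-depletion.

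The genes whose pattern over KP post-depletion cells was most like each member are given next. By Pearson's r of log-normalised values over 2730 cells, among 9924 genes, Meg3 was nearest to Xist (0.45), the sialyltransferase St8sia6 (0.45), Kcnq1ot1 (0.43), and the immediate early genes Btg2 (0.40) and Egr1 (0.38). Mirg was nearest to B830012L14Rik (0.32), Trf (0.23), Cfi (0.22), St8sia6 (0.22) and Kcnq1ot1 (0.21). Peg3 was nearest to creatine kinase Ckb (0.31), the apolipoproteins Apob (0.31) and Apoe (0.29), St8sia6 (0.27) and Kcnq1ot1 (0.25). Dlk1 was nearest to transferrin, Trf (0.30), Pglyrp1 (0.24), Lcn2 (0.21), Chil1 (0.21) and Kng2 (0.20). St8sia6 and Kcnq1ot1 were among the first 5 of Meg3, Mirg and Peg3, while Trf was among the first 5 of both Dlk1 and Mirg. Correlations in sparse counts are low for rare genes, and all cells share a library.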

How the data were processed

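The 4 deposited matrices hold UMI counts per gene and barcode, which the authors made on mm10, per the submitters' processing notes. The headers name version 6.0.0 of Cell Ranger. Barcodes with at least 1000 UMIs, 500 genes and at most 20% mitochondrial UMIs were kept. Scrublet's own threshold marked 0.0276% to 0.117% of cells, which is too few, so the highest scores were removed at 0.8% per 1000 barcodes. Cells of all libraries were clustered together (scanpy 1.11.5, 2000 variable genes, 30 components, 15 neighbours, Leiden resolution 1 with igraph 0.11.9) and clusters were named from marker lists. Members were among the genes clustered. The epithelial-like total depth behind each CPM was 5690221 to 47284096 UMIs.

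UMIs were summed per library and class. CPM carries exact Poisson intervals, shares Clopper-Pearson intervals and ratios exact conditional binomial intervals, all at 95% (scipy 1.17.1, numpy 2.4.6, Python 3.11.15). UMIs remove amplification copies, and the intervals leave out variation between animals. Log2 folds set KPF1F2 over KP after 1 CPM was added to both levels, and genes needed a mean of 20 CPM. A count of 0 is given a limit of 3 counts. With 1 library per group no test was made. TMM factors came from edgeR 4.0.16 and size factors from DESeq2 1.42.0 (R 4.3.3), for scaling only. The fold calculation was checked on simulated data.

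The members, gene lists and comparisons were chosen with earlier results of these data known. Named genes were the members, the 5 genes most correlated with each, and from each list up to 4 genes with the largest fold post-depletion, plus imprinted genes and neighbours at 50 CPM or more in KP. Alternatives covered doublets, the mitochondrial limit, clustering resolution, scaling, CRE-ERT2 cells, weighting, pseudocount, thinning and clusters. A further allele shared by all groups is not reported here.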

Additional observations from a re-analysis of the deposited data

How the results depend on the processing

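Of 256 alternatives to 40 results, 162 left the value within its counting interval or its count within 1.5 times, 83 moved it further and 11 turned its direction. All log2 folds of the members stayed negative in every alternative run. No paired analysis was possible because each group is 1 library and no test was made.

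Log2 folds, KPF1F2 over KP, moved as follows. With a mitochondrial limit of 10%, Meg3 was at -4.84 post-depletion and -3.28 pre-depletion, and with TMM factors at -3.67 pre-depletion. In CRE-ERT2 cells Dlk1 was at -5.27, Meg3 at -6.03 and Mirg at -4.14 post-depletion, and Dlk1 at -4.29 and Meg3 at -3.71 pre-depletion. With equal weight per cell Dlk1 was at -4.41 and Meg3 at -4.65 post-depletion, and Meg3 at -3.70 pre-depletion. With a pseudocount of 0.1 CPM, Mirg was at -4.57 and Peg3 at -7.00 post-depletion. With cluster 8 added, chosen after seeing the data like the next 2 settings, Meg3 was at -5.25 and -3.91, and without clusters 10 and 31 at -5.01 post-depletion. Without the KPF1F2 cell with most Dlk1, Dlk1 was at -5.09 post-depletion and -5.06 pre-depletion, and Meg3 at -5.35 post-depletion. With no CPM minimum, 705 genes were higher and 897 lower post-depletion, and 1083 and 679 pre-depletion. In CRE-ERT2 cells 471 were higher pre-depletion.

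The share of KP post-depletion cells with Dlk1, Mirg or Peg3 was higher with Meg3 than without it by 4.59, 4.98 and 4.01 percentage points when thinned to 2000 UMIs. Unthinned it was 21.6 for Mirg and 17.4 for Peg3, in CRE-ERT2 cells 2.91 for Dlk1 and 13.5 for Mirg, and within clusters 5.31 for Mirg and 2.45 for Peg3.

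Ratios of the highest to the lowest bin in KP post-depletion depended most on the setting. By total UMIs, a mitochondrial limit of 10% turned Meg3 to 1.08 and Mirg to 1.15 and gave 0.93 for Peg3. Within clusters Dlk1 was at 2.09 and Meg3 at 0.596, with doublets kept Meg3 was at 0.812, and in CRE-ERT2 cells Dlk1 turned to 0.532 and Meg3 was at 0.488. With cluster 8 added, Meg3, Mirg and Peg3 were at 0.202, 0.148 and 0.235. By mitochondrial share, the limit of 10% gave 3.41 for Meg3, doublets kept 3.36, and CRE-ERT2 cells 3.86 for Meg3 and 3.83 for Mirg. Within clusters Dlk1 turned to 0.609, and Meg3, Mirg and Peg3 were at 2.03, 1.83 and 1.32. With cluster 8 added, Dlk1, Meg3, Mirg and Peg3 were at 1.02, 5.45, 5.56 and 3.62. Pre-depletion, by total UMIs, Meg3 and Mirg turned to 0.695 and 0.89 within clusters and to 0.297 and 0.238 with cluster 8 added, and Mirg to 0.83 in CRE-ERT2 cells. By mitochondrial share, Dlk1 and Peg3 turned to 0.478 and 0.897 within clusters. The cause of these changes was not tested. Depth limits Mirg and Peg3 in KPF1F2, where a few UMIs set each level.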
